A study of Homo sapiens with 17 samples.

Results

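Molecular chaperones are the proteins that help other proteins fold, keep them from aggregating and hand damaged ones on for degradation. The set described here holds 41 human genes of the cytosolic chaperone network and its HSP90 co-chaperones, with 3 mitochondrial chaperones that the list also names, listed by name for their roles, out of 25548 gene symbols in the deposited expression table. All 41 were found, each on a line of its own, and all 41 were among the 12015 genes that reached a mean of 1 FPKM and were tested. FPKM counts fragments per kilobase of transcript relative to all mapped fragments, so it allows levels to be compared between genes. The genes were measured by polyadenylated RNA sequencing in Jurkat cells, an established line from a human T cell acute leukaemia, exposed to ILT3.Fc, a soluble fusion of the inhibitory receptor ILT3 with an antibody Fc part. The doses were 0, 12.5 and 25 µg/ml and the times 6, 12 and 24 h, which gives 9 groups and 17 libraries. The untreated group at 12 h held 1 library and the other 8 groups held 2 each. Cells at 0 µg/ml are called untreated here, and the labels name no other Fc protein as a control for any group.

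HSP70 and HSP90 are ATP-driven chaperones that act in sequence. HSP40 proteins bring clients to HSP70 and start its ATPase, nucleotide exchange factors such as HSP110 and BAG proteins release them, and co-chaperones pass some of them to HSP90, on which many kinases and steroid receptors depend. The ring-shaped TRiC complex folds actin and tubulin. Many of these genes are induced by heat shock factor 1, HSF1, which binds heat shock elements in their promoters, and free HSP70 and HSP90 in turn hold HSF1 inactive. T cells depend on the same network for their signalling kinases, LCK among them.

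The heat shock element is built from repeats of nGAAn in alternating orientation, and it is shown here because it is the sequence that HSF1 binds. RefSeq promoter windows (GRCh38.p14, 250 bases before to 50 bases after each start) were matched for 35 of the 41 genes, in 49 windows. A three-unit element, GAANNTTCNNGAA or its reverse complement TTCNNGAANNTTC, was searched on both strands, and the 2 forms can overlap each other. It was present in 7 of the 49 windows (14.29%) and in 172 of all 35116 windows of the same length (0.49%). The 7 windows belonged to 7 genes, CHORDC1, HSPA8, HSP90AA1, HSP90AB1, HSPD1, DNAJA1 and DNAJB6. Stretches of 30 bases around the elements of 6 of these genes follow, 5′ to 3′ on the strand of the gene, with the matched letters in capitals.
CHORDC1: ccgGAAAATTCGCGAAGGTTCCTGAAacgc
HSPA8 distal: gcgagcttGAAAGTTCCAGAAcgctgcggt
HSPA8 proximal: cgggccccTTCTGGAAGGTTCtaagatagg
HSP90AB1 distal: ggagcaggTTCTGGAAGATTCatgggctcc
HSP90AB1 proximal: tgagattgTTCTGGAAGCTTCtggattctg
HSP90AA1: gagggttcTTCCGGAAGGTTCgggaggctt
HSPD1: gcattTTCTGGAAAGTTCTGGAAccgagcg
DNAJB6: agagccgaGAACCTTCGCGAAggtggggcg

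The CHORDC1 stretch lies at chr11:90223083-90223112 on the minus strand and holds 3 overlapping matches over 23 bases, the longest run among the members. The HSPA8 stretches lie at chr11:123062345-123062374 and chr11:123062170-123062199 on the minus strand. Those of HSP90AB1 lie at chr6:44247770-44247799 and chr6:44247823-44247852 on the plus strand. The HSP90AA1 stretch lies at chr14:102087111-102087140 and the HSPD1 stretch, with 2 overlapping matches over 18 bases, at chr2:197500061-197500090, both on the minus strand. The DNAJB6 stretch lies at chr7:157336865-157336894 on the plus strand. A match describes the letters only and says nothing of whether HSF1 binds there in these cells. The shorter unit GAANNTTC was in 32.65% of member windows against 6.77% of all windows, and TTCNNGAA in 22.45% against 7.74%. The unrelated CCAAT box, searched as CCAAT or ATTGG, was in 30.61% against 34.61%.

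The libraries were checked before the genes were compared. T cell markers were high in all 17 libraries, with CD3D at 508 to 652 FPKM, and the receptor gene LILRB4 was listed at 0 in each. B cell, myeloid, NK cell and epithelial markers were at or near 0 apart from CD79A, at 33.4 to 48.1 FPKM, and NKG7, at 3.502 to 6.996 FPKM. FPKM sums per library ranged from 504363 to 557389, and the relative depth, read from the steps between low values, was 0.68 of the deepest library at its lowest. One of the 12.5 µg/ml libraries at 6 h, replicate 1, deviated from the mean library with gene length. Replicate 2 of 25 µg/ml at 24 h deviated with GC content, at a Spearman correlation of 0.56 over the genes. All 24 h libraries ran in lane 4, all 12 h libraries in lane 5, and each 6 h group had 1 library in each.

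Chaperone genes were among the most abundant of these cells. HSPA8, the constitutive cytosolic HSP70, averaged 2230.3 FPKM over the 17 libraries and ranked 5 among all symbols. HSP90AB1, the constitutive HSP90, averaged 1376 FPKM and ranked 35, and HSP90AA1, the inducible HSP90, averaged 1306 FPKM and ranked 40. Averages of 100 FPKM or more were reached by 24 of the 41 genes and of 10 FPKM or more by 40, with DNAJB4, an HSP40 protein, lowest at 6.94 FPKM. Together the 41 genes took between 2.15% and 2.59% of the summed FPKM of a library.

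**Figure D1:**
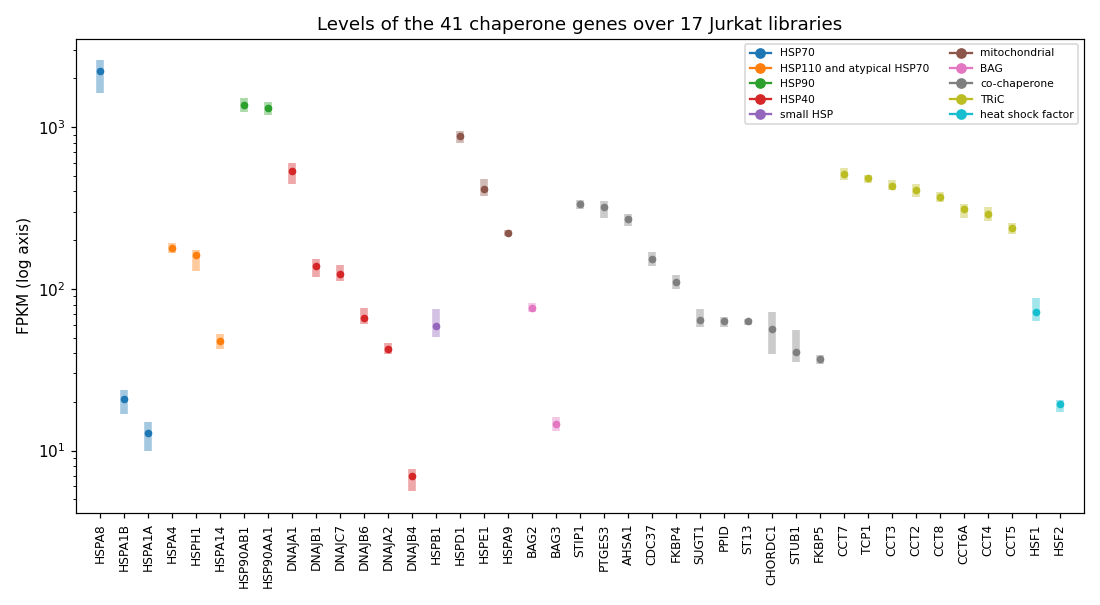
Level of each of the 41 genes in FPKM on a log axis, grouped and coloured by role, with the point at the mean of 17 libraries and the bar from the lowest to the highest library. HSPA8, HSP90AB1 and HSP90AA1 stand above 1000 FPKM, and the 8 TRiC subunits lie in a narrow band from 238 to 511 FPKM.

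The stress-inducible HSP70 genes were far below their constitutive relative. HSPA1A averaged 12.9 FPKM and HSPA1B 20.8 FPKM, so that HSPA8 was 173 and 107 times as high on the FPKM scale. These neighbouring genes encode near-identical proteins, and how the authors' counting split their shared reads is not given in the sources used here. Their ratio stayed between 0.593 and 0.662 in every library. The 8 subunits of TRiC, which assemble in equal number, spanned 2.15 times on the FPKM scale, from CCT5 at 238 FPKM to CCT7 at 511 FPKM. HSF1 averaged 72.1 FPKM and HSF2, its relative, 19.3 FPKM.

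The levels also varied little between libraries. The coefficient of variation over all 17 libraries had a median of 5.48% over the 41 genes, against 7.33% over all genes tested and 6.03% over the 7400 genes at 10 FPKM or more. It was lowest for HSPA9, the mitochondrial HSP70, at 2.56%, and highest for CHORDC1, at 16.5%. Next to CHORDC1 came HSPA8 (14.5%), STUB1 (13.8%), HSPB1 (12.4%), HSPA1A (12.2%) and HSPA1B (11.7%).

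CHORDC1 was the member that changed most with ILT3.Fc. It encodes CHP-1 (also called morgana), a co-chaperone with CHORD and CS domains that binds HSP90. At 6 h it measured 59.9 and 63.1 FPKM in untreated cells, 50.8 and 55.7 FPKM at 12.5 µg/ml, and 48.0 and 49.7 FPKM at 25 µg/ml. At 12 h the untreated library had 71.1 FPKM, the 12.5 µg/ml libraries 64.5 and 63.6 FPKM, and the 25 µg/ml libraries 56.6 and 56.1 FPKM. At 24 h untreated cells had 66.5 and 72.2 FPKM, cells at 12.5 µg/ml 51.5 and 53.9 FPKM, and cells at 25 µg/ml 42.6 and 39.5 FPKM. At every time each library at 12.5 µg/ml lay below each untreated library, and each library at 25 µg/ml lay below both. This order at all 3 times was found in 24 of the 12015 genes tested (0.2%), and CHORDC1 was the one member among them. At 25 µg/ml its mean was 79.5% of the untreated mean at 6 h, 79.2% at 12 h and 59.1% at 24 h.

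These differences were tested with limma on log2(FPKM + 1), with 1 mean per group and Benjamini-Hochberg adjustment across the 12015 genes. Folds on this scale understate the change of low genes. The p-values set each difference against the spread between duplicates, pooled over the groups. The labels speak only of duplicated samples, so that spread may be technical. Over all times CHORDC1 fell by 0.47 ± 0.04 (SE) at 25 µg/ml against 0 (limma adjusted p = 6.36e-05), the 8th smallest p of the table. Within lane 4 (6 and 24 h) the difference was -0.53 (limma adjusted p = 0.0369) and within lane 5 (6 and 12 h) -0.33 (limma adjusted p = 0.0753). At 12.5 µg/ml it fell by 0.25 ± 0.04 against the same untreated libraries (limma adjusted p = 0.0276). Between 25 and 12.5 µg/ml it fell by 0.22 ± 0.03 (limma adjusted p = 0.0210). At single times the difference at 25 µg/ml was -0.33 ± 0.06 at 6 h (limma adjusted p = 0.0527) and -0.33 ± 0.07 at 12 h (limma adjusted p = 0.162), neither past the threshold of 0.05. At 24 h the fall was 0.74 ± 0.06 (limma adjusted p = 9.01e-05), and it kept its call in each of 29 other settings. The CHORDC1 transcript is poor in GC (35.0%). After its values were corrected for GC content and transcript length, its fall was 0.37 at 6 h (limma adjusted p = 7.95e-04), 0.38 at 12 h (limma adjusted p = 0.00154) and 0.69 at 24 h (limma adjusted p = 5.19e-07), so that it passed at each time. The calls for 12.5 against 0 and for 25 against 12.5 µg/ml were lost in 16 of 30 and 14 of 31 other settings.

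**Figure D2:**
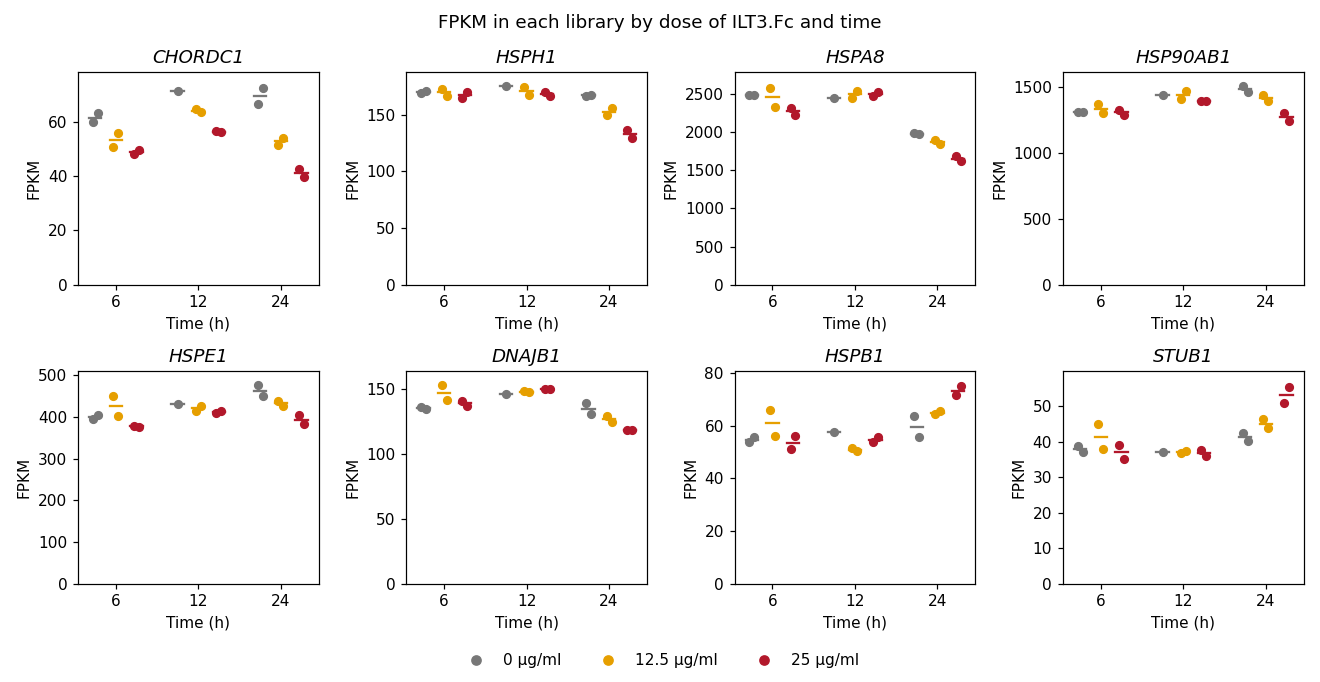
FPKM of 8 members in each library, by time and by dose of ILT3.Fc (grey 0, orange 12.5, red 25 µg/ml), with a point per library and a line at each group mean. CHORDC1 steps down with dose at all 3 times, HSPH1, HSPA8, HSP90AB1, HSPE1 and DNAJB1 at 24 h, while HSPB1 and STUB1 step up at 24 h.

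Over all 3 times, 25 µg/ml against 0 changed 3 of the 41 members, all downward, CHORDC1, HSPH1 and HSPE1. Among all genes tested, 9.47% were called in either direction, 4% lower and 5.47% higher. The share of members called was thus near the background. The median log2 difference of the members was -0.04 against 0.02 over all genes tested, and 37 of 41 members were negative against 42.7% of all genes. HSPH1 fell by 0.14 ± 0.02 (limma adjusted p = 0.00777) and HSPE1 by 0.13 ± 0.03 (limma adjusted p = 0.0387). Both calls were lost without the 24 h libraries, where HSPH1 differed by -0.04 (limma adjusted p = 0.613) and HSPE1 by -0.07 (limma adjusted p = 0.538), and HSPE1 lost its call in 18 of 30 other settings. When libraries were centred on their medians, 6 members were lower and none higher, and the calls over all genes turned from 481 lower and 657 higher to 765 lower and 393 higher.

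The lower dose moved few genes. At 12.5 µg/ml against 0 over all times, 1 member was called, CHORDC1, with 0.283% of all genes called, 0.117% lower and 0.166% higher. The members' median was 0.00 against 0.01 over all genes. Between the doses, 25 against 12.5 µg/ml, CHORDC1 was again the 1 member called, with 0.283% of all genes called, 0.216% lower and 0.0666% higher. The members' median was -0.05 against 0.01, with 38 of 41 members negative. That count reached 17 members, all lower, when replicate 2 of 12.5 µg/ml at 6 h was left out, which leaves replicate 1, the library that followed gene length, alone in its group. In that setting 4.56% of all genes were called lower and 7.71% higher, so the rise was not confined to the members.

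At 6 h no member was called at 25 µg/ml (limma; 5 of 41 at an unadjusted p under 0.05), with 0.225% of all genes called, 0.166% lower and 0.0583% higher. Without either library of 12.5 µg/ml at 6 h, CHORDC1 was called at 6 h. At 12 h no member was called (limma; 1 of 41 at an unadjusted p under 0.05), with 0.0499% of all genes called, 0.0166% lower and 0.0333% higher. The untreated group had 1 library here, whose spread was taken from the other groups. Libraries at 25 µg/ml lay below those at 0 without overlap for 10 members at 6 h, where 25.9% of all genes did, and for 17 members at 12 h, where 32.7% did. Above those at 0 at 6 h were HSPA14 and DNAJB1, where 23.4% of all genes were. The 3 doses were ordered downward at 6 h for CHORDC1 alone of the members (1.81% of all genes) and upward for none (1.23%), and downward at 12 h for CHORDC1, CDC37 and TCP1 (6.62%). The members' medians were -0.02 at 6 h and 0.00 at 12 h, against -0.004 and 0.014 over all genes. Negative at 6 h were 35 of 41 members against 51.9% of all genes, and at 12 h 21 of 41 against 44.1%.

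At 24 h more of the chaperone genes were lower with ILT3.Fc. Of the 41 members, 10 fell and 2 rose at 25 µg/ml against 0, while 5.76% of all genes tested fell and 10.7% rose (16.5% in either direction). The members' median log2 difference was -0.11, against 0.04 over all genes, and 37 of 41 members were negative against 40.8% of all genes. Both 25 µg/ml libraries lay below both untreated ones for 32 members, where 23.1% of all genes did. The 3 doses were ordered downward without overlap for 15 members, where 6.85% of all genes were. The members' share of the summed FPKM at 24 h was 2.45% and 2.46% in untreated cells, 2.37% and 2.38% at 12.5 µg/ml, and 2.24% and 2.15% at 25 µg/ml. At 12 h the shares of all 5 libraries lay between 2.55% and 2.59%. At 6 h they were 2.43% and 2.44% in untreated cells, 2.4% and 2.39% at 12.5 µg/ml, and 2.39% and 2.39% at 25 µg/ml.

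**Figure D3:**
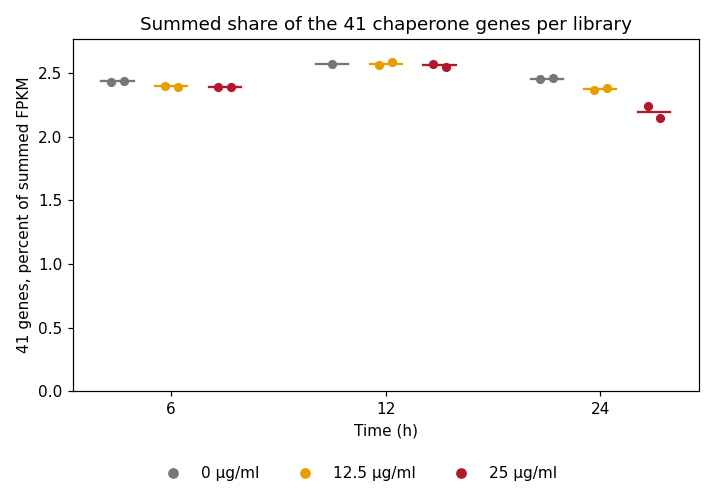
Summed FPKM of the 41 genes as a percent of all FPKM in each library (points) by time in h and dose, with a line at each group mean and the axis from 0. The 25 µg/ml libraries at 24 h are lowest, at 2.24% and 2.15%, and the 12 h libraries do not separate by dose. At 6 h the untreated libraries, at 2.43% and 2.44%, lie slightly above the others.

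All 24 h libraries ran in the same lane, and libraries of both groups compared deviated with GC content. The Spearman correlation of the deviation with GC content was 0.56 in replicate 2 of 25 µg/ml and -0.37 in untreated replicate 2, against 0.13 and 0.03 in replicate 1 of each. The members have a lower GC content than the rest (median 45.1% against 48.1% of all tested genes). Without replicate 2 of 25 µg/ml CHORDC1 and HSPH1 were the 2 members called, both lower, with 2.06% of all genes lower and 2.95% higher. Leaving out untreated replicate 1 or untreated replicate 2 at 24 h left 1 untreated library there. In both settings fewer members were called, and fewer of all genes were called too. After each library was corrected for GC content and length, 20 members were lower and 1 higher, with 10.3% of all genes lower and 8.41% higher. Newly called lower were HSPA1A, HSP90AA1, HSPD1, DNAJA1, BAG3, STIP1, AHSA1, FKBP4, CCT3 and CCT6A. The members called lower without this correction stayed lower, and HSPB1 was no longer called. Centring on medians gave 13 lower and 1 higher, with 984 of all genes lower and 758 higher. At 24 h the summed level of 3 NK cell markers, nearly all NKG7, was 3.78 to 3.80 FPKM in untreated cells. At 25 µg/ml it was 5.27 to 5.92 FPKM. The NK cell sum at 6 h was 6.01 to 7.34 FPKM untreated and 5.37 to 6.09 FPKM at 25 µg/ml. T cell marker sums at 24 h were 1648 to 1723 FPKM untreated and 1779 to 1796 FPKM at 25 µg/ml. B cell marker sums were 33.4 to 36.2 and 37.9 to 40.5 FPKM. Myeloid and epithelial sums overlapped. The part of these markers in the result was not tested. In bulk RNA, fewer cells with a transcript and less of it per cell cannot be told apart.

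**Figure D4:**
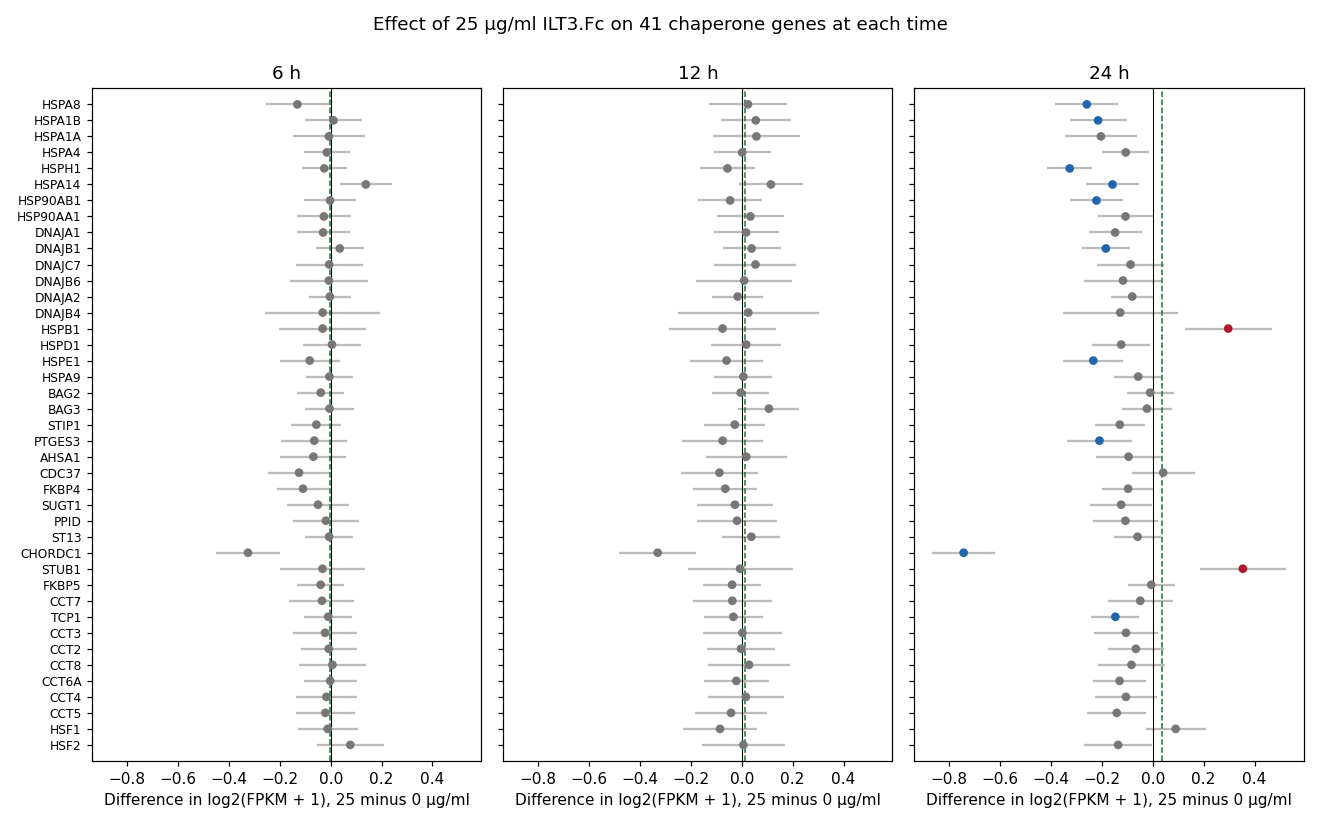
Difference in log2(FPKM + 1) between 25 and 0 µg/ml for each of the 41 genes at 6, 12 and 24 h, with 95% intervals, members called lower in blue and higher in red, and the median of all 12015 genes tested as a dashed line. At 24 h, 37 of 41 points lie left of 0 and the median of all genes lies right of it.

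Among the HSP70 genes, 2 of 3 fell at 24 h. HSPA8 measured 1989 and 1972 FPKM in untreated cells, 1904 and 1844 FPKM at 12.5 µg/ml and 1686 and 1623 FPKM at 25 µg/ml. The 3 groups did not overlap, and at 25 µg/ml HSPA8 fell by 0.26 ± 0.06 (limma adjusted p = 0.0120). At 6 h it measured 2489.6 and 2491 FPKM in untreated cells, 2586 and 2329.9 FPKM at 12.5 µg/ml, and 2324 and 2225 FPKM at 25 µg/ml, and at 12 h between 2455 and 2546 FPKM in all 5 libraries. Over all times its difference of -0.12 was just short of the threshold (limma adjusted p = 0.0518). HSPA1B measured 20.1 and 19.4 FPKM in untreated cells at 24 h, 17.6 and 17.1 FPKM at 12.5 µg/ml and 16.7 and 17.03 FPKM at 25 µg/ml. It fell by 0.22 ± 0.05 (limma adjusted p = 0.0171). HSPA1A, which shares reads with it, measured 12.4 and 12.0, then 10.99 and 10.5, then 9.91 and 10.98 FPKM, a difference of -0.20 ± 0.06 that did not pass (limma adjusted p = 0.0509). Corrected for GC content and length, HSPA1A passed at -0.33 (limma adjusted p = 0.00219) and HSPA1B at -0.34 (limma adjusted p = 2.67e-04). At 6 h HSPA1A lay between 12.4 and 14.6 FPKM and HSPA1B between 20.3 and 23.7 FPKM, and at 12 h between 13.9 and 15.0 and between 22.3 and 23.7 FPKM, with no order by dose.

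HSPH1, the inducible HSP110 that exchanges nucleotide on HSP70, was the member with the second largest fall at 24 h. It measured 167 and 167 FPKM in untreated cells at 24 h, 149.7 and 156 FPKM at 12.5 µg/ml, and 137 and 129 FPKM at 25 µg/ml. The doses did not overlap, and HSPH1 fell by 0.33 ± 0.04 (limma adjusted p = 7.53e-04), a call kept in each of 29 other settings. At 6 and 12 h all 11 libraries lay between 165 and 175 FPKM, and the differences at 25 µg/ml, -0.03 and -0.06, did not pass. HSPA14, an atypical HSP70 bound to ribosomes, measured 49.1 and 49.8 FPKM in untreated cells at 24 h, 50.0 and 51.7 FPKM at 12.5 µg/ml, and 45.9 and 42.6 FPKM at 25 µg/ml. It fell by 0.16 ± 0.05 (limma adjusted p = 0.0416), a call lost in 16 of 29 other settings. At 6 h it had measured 45.2 and 42.3, 52.8 and 50.8, and 47.0 and 49.5 FPKM at the 3 doses, with untreated cells lowest, and at 12 h 44.4, then 47.6 and 49.0, then 47.9 and 48.4 FPKM. HSPA4, the constitutive HSP110, differed by -0.11 at 24 h (limma adjusted p = 0.102).

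Of the HSP90 genes, HSP90AB1 fell. It measured 1512 and 1461 FPKM in untreated cells at 24 h, 1438 and 1397 FPKM at 12.5 µg/ml and 1304 and 1246 FPKM at 25 µg/ml. The groups did not overlap, and the fall was 0.22 ± 0.05 (limma adjusted p = 0.0106). HSP90AB1 lay between 1293 and 1375 FPKM at 6 h and between 1393 and 1472 FPKM at 12 h. HSP90AA1 measured 1324 and 1375, then 1303 and 1323, then 1295 and 1212 FPKM at 24 h. Its groups were ordered without overlap, but the difference of -0.11 ± 0.05 did not pass (limma adjusted p = 0.152). With the GC and length correction HSP90AA1 passed at -0.12 (limma adjusted p = 0.0444), but not with the replicate block added. It lay between 1184 and 1253 FPKM at 6 h and between 1383 and 1432 FPKM at 12 h.

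Among 6 HSP40 genes, DNAJB1, a heat-inducible partner of HSP70, was called. It measured 139 and 131 FPKM in untreated cells at 24 h, 129 and 125 FPKM at 12.5 µg/ml, and 118 and 119 FPKM at 25 µg/ml. It fell by 0.18 ± 0.04 (limma adjusted p = 0.0154), without overlap between doses. At 6 h it lay between 135 and 153 FPKM and at 12 h between 146 and 150.1 FPKM, where untreated cells were lowest. DNAJA1, DNAJA2, DNAJB4, DNAJB6 and DNAJC7 were all negative at 24 h, from -0.15 (DNAJA1, limma adjusted p = 0.0550) to -0.08, and none passed. Corrected for GC content and length, DNAJA1 passed at -0.13 (limma adjusted p = 0.0356), and the others did not.

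HSPB1 and STUB1 went the other way. HSPB1, also called HSP27, holds unfolded proteins without ATP, and STUB1, also called CHIP, is the ubiquitin ligase that marks clients of HSP70 and HSP90 for degradation. HSPB1 measured 63.5 and 55.5 FPKM in untreated cells at 24 h, 64.3 and 65.6 FPKM at 12.5 µg/ml and 71.5 and 74.9 FPKM at 25 µg/ml. STUB1 measured 42.5 and 40.2, then 46.2 and 43.9, then 50.9 and 55.4 FPKM. In both the doses were ordered upward without overlap, as in 10.9% of all genes tested. HSPB1 rose by 0.30 ± 0.08 (limma adjusted p = 0.0270) and STUB1 by 0.35 ± 0.08 (limma adjusted p = 0.0121). These calls were lost in 8 and 2 of 29 other settings.

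Their transcripts are GC-rich, at 64.3% for HSPB1 and 65.0% for STUB1, the property that the deviating 25 µg/ml library at 24 h followed. After correction for GC content and length STUB1 rose by 0.20 (limma adjusted p = 0.0133), and HSPB1 differed by 0.15 (limma adjusted p = 0.0791). At 6 h HSPB1 lay between 51.0 and 65.9 FPKM and STUB1 between 35.2 and 44.9 FPKM, both highest in replicate 1 of 12.5 µg/ml. At 12 h they lay between 50.2 and 57.7 FPKM and between 35.9 and 37.7 FPKM.

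Of the 3 mitochondrial chaperones in the set, HSPE1, the lid of the HSP60 chamber also known as HSP10, fell at 24 h. It measured 476 and 449 FPKM in untreated cells, 439 and 426 FPKM at 12.5 µg/ml, and 404 and 383 FPKM at 25 µg/ml. The doses did not overlap, and the fall was 0.23 ± 0.05 (limma adjusted p = 0.0149). At 6 h it measured 396 and 404, 451 and 403, and 378 and 377 FPKM, and at 12 h between 410.1 and 430.0 FPKM in all 5 libraries. Its partner HSPD1, which is HSP60, differed by -0.12 (limma adjusted p = 0.120) and HSPA9 by -0.06 (limma adjusted p = 0.384) at 24 h. With the GC and length correction HSPD1 passed at -0.12 (limma adjusted p = 0.0393), and HSPA9 did not. GENCODE names 26 pseudogenes after HSPE1 and 17 each after HSPA8 and HSPD1, and how reads from such copies were assigned is not given in the sources used here.

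The set holds 11 co-chaperones, of which 2 fell and 1, STUB1, rose at 24 h. Besides CHORDC1, the fall concerned PTGES3, the p23 protein that stabilises the closed form of HSP90. PTGES3 measured 322 and 336 FPKM in untreated cells at 24 h, 310.0 and 316 FPKM at 12.5 µg/ml and 296 and 273 FPKM at 25 µg/ml. It fell by 0.21 ± 0.06 (limma adjusted p = 0.0345), a call lost in 8 of 29 other settings. At 6 and 12 h PTGES3 lay between 314 and 349 FPKM with overlapping groups at 6 h. The other co-chaperones at 24 h ranged from -0.13 for STIP1, which links HSP70 to HSP90, to 0.04 for CDC37, which brings kinases to HSP90 and whose difference turned to -0.07 after the GC and length correction. None of STIP1, AHSA1, CDC37, FKBP4, FKBP5, PPID, SUGT1 and ST13 passed in the main fit. With that correction STIP1 passed at -0.23 (limma adjusted p = 0.00235), AHSA1 at -0.13 (limma adjusted p = 0.0180) and FKBP4 at -0.15 (limma adjusted p = 0.0243). CDC37, FKBP5, PPID, SUGT1 and ST13 still did not pass. SUGT1, which like CHORDC1 has a CS domain and binds HSP90, measured 67.9 and 74.8, then 68.5 and 70.6, then 67.2 and 63.4 FPKM at 24 h. Its difference of -0.12 did not pass (limma adjusted p = 0.147).

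All 8 TRiC genes were negative at 24 h, and 1 passed, TCP1, which encodes the alpha subunit. TCP1 measured 502 and 507 FPKM in untreated cells, 491 and 498 FPKM at 12.5 µg/ml and 462 and 449 FPKM at 25 µg/ml. It fell by 0.15 ± 0.04 (limma adjusted p = 0.0400), a call lost in 19 of 29 other settings. TCP1 lay between 455 and 498 FPKM at 6 h and between 493 and 505 FPKM at 12 h. The other subunits, CCT2 to CCT8, ranged from -0.14 (CCT5) to -0.05 (CCT7). Corrected for GC content and length, CCT3 passed at -0.15 (limma adjusted p = 0.0185) and CCT6A at -0.13 (limma adjusted p = 0.0199), beside TCP1. BAG2 and BAG3, which bind HSP70, differed by -0.01 and -0.02 at 24 h, and neither passed. After the GC and length correction BAG2 differed by 0.04 and BAG3 by -0.14 (limma adjusted p = 0.0442).

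The heat shock factors themselves did not pass with dose at any time. HSF1 measured 79.9 and 76.0 FPKM in untreated cells at 24 h, 79.1 and 78.4 FPKM at 12.5 µg/ml and 78.2 and 88.1 FPKM at 25 µg/ml. At 6 h it had measured 65.7 and 64.9, 72.8 and 69.05, and 66.6 and 63.0 FPKM, and at 12 h 72.3, then 68.3 and 67.7, then 67.4 and 68.7 FPKM. The 25 µg/ml libraries overlapped the untreated ones at 6 and 24 h, and the single untreated library was highest at 12 h. At 24 h HSF1 differed by 0.09 (limma adjusted p = 0.276) and HSF2 by -0.14 (limma adjusted p = 0.145). The HSF1 transcript is GC-rich (64.7%), and after the GC and length correction its difference turned to -0.08 (limma adjusted p = 0.0924). These are transcript levels, and HSF1 is known to be controlled largely at the protein. Of the 7 genes with a three-unit heat shock element in their window, 3 fell at 24 h, with a median of -0.15 and a range from -0.74 to -0.11. Of the 28 matched genes without one, 6 fell and 1 rose, with a median of -0.11 and a range from -0.33 to 0.30. Of all genes tested, 5.76% fell and 10.7% rose at 24 h. The 28 include genes with the shorter unit GAANNTTC, among them HSPA1B, DNAJB1 and TCP1, which fell, and HSPB1, which rose. HSPH1 and HSPE1 are also among the 28. The HSPE1 window, chr2:197500129-197500428 on the plus strand, starts just beyond the HSPD1 stretch at chr2:197500061-197500090. That stretch lies upstream of HSPE1 too and was not counted for it.

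The effect of 25 µg/ml differed between 24 and 6 h for 3 members by the interaction term, all more negative at 24 h, where 3.3% of all genes were called, 0.949% in that direction and 2.35% in the other. They were CHORDC1, at -0.42 ± 0.08 (limma adjusted p = 0.0238), HSPH1, at -0.30 ± 0.06 (limma adjusted p = 0.0219), and HSPA14, at -0.30 ± 0.07 (limma adjusted p = 0.0391). HSPA8, HSP90AB1, DNAJB1, STUB1 and HSPB1 were not called by this term. After the GC and length correction CHORDC1, HSPA14, HSP90AB1, DNAJB1, HSPA1A and HSPA1B were called, all more negative at 24 h, and HSPH1 was not, at -0.24 (limma adjusted p = 0.0539). Quantile normalization called HSPA8, HSP90AB1 and DNAJB1 beside CHORDC1, HSPH1 and HSPA14. Of all genes, 1.72% were called more negative and 1.19% more positive after the correction, and 1.46% and 1.71% with quantile normalization. No member was called without replicate 2 of 25 µg/ml at 24 h, untreated replicate 2 at 24 h, or any 1 of the 4 libraries at 0 or 25 µg/ml and 6 h.

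Between untreated cells at 6 and 24 h, 2 members differed. In untreated cells HSPA8 fell by 0.33 ± 0.06 from 6 to 24 h (limma adjusted p = 0.0169), from 2489.6 and 2491 FPKM to 1989 and 1972 FPKM. HSF1 rose by 0.25 ± 0.05 (limma adjusted p = 0.0380), from 65.7 and 64.9 FPKM to 79.9 and 76.0 FPKM. Of all genes tested 2.33% were called, 1.77% lower and 0.558% higher, and the members' median was 0.08 against -0.02 over all genes. The 24 h libraries shared 1 lane and the 6 h libraries did not, so time and lane are partly confounded. With lane as a covariate HSPA8 differed by -0.37 (limma adjusted p = 0.0197) and HSF1 by 0.22 (limma adjusted p = 0.0730), and the HSF1 call was lost in 16 of 29 other settings. Within lane 4 alone, with 1 untreated library at 6 h, HSPA8 differed by -0.33 (limma adjusted p = 0.223) and HSF1 by 0.24 (limma adjusted p = 0.353).

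Other chaperone genes were read from a list of 60, of which 53 were tested. Over all times at 25 µg/ml, 1 fell and 2 rose, where 4% and 5.47% of all genes did, and their median was 0.00. SERPINH1, the collagen chaperone of the endoplasmic reticulum also called HSP47, rose by 0.28 (limma adjusted p = 0.00262). DNAJB2, an HSP40 protein, rose by 0.12 (limma adjusted p = 0.0292), and RUVBL1, an ATPase of the R2TP complex that works with HSP90, fell by 0.14 (limma adjusted p = 0.0330). FKBP1A (-0.08), RPAP3 (0.09) and DNAJC2 (0.10) had the next smallest p-values and did not pass. At 24 h, 1 fell and 3 rose, where 5.76% and 10.7% of all genes did, with a median of 0.03, and 19 of 53 were negative.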

How the data were processed

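Polyadenylated RNA of 17 Jurkat libraries was measured. The authors deposited 1 table of FPKM values (25593 lines, 25548 symbols), and TopHat2 2.1.0 is named per the submitters' processing notes. The quantifier is not given in the sources used here, nor are the build and annotation. Absolute depth is unknown, and relative depth came from 6620 genes under a mean FPKM of 0.3 (tolerance 0.03 in log2). Genes averaging 1 FPKM or more were tested on log2(FPKM + 1) with limma 3.58.1 in R 4.3.3, with 9 group means, 8 residual degrees of freedom, a variance trend, two-sided tests and Benjamini-Hochberg adjustment over 12015 genes, called under 0.05. The members and lists were chosen with earlier results of these data known. Library values are given for members called in any comparison and for HSF1 and the main HSP70 and HSP90 genes, and other members by range. Up to 6 genes of the further list are named by smallest p, and SUGT1 values were added after they were seen. GENCODE v29 gave GC content and transcript length (92.8% of tested genes, loess span 0.3). Alternatives changed the pseudocount (0.1), the filter (none or 5 FPKM), scaling, trend, lane, block and libraries used.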

Additional observations from a re-analysis of the deposited data

Results flagged for a closer look

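The effect of 25 µg/ml ILT3.Fc differed between 24 and 6 h by the interaction term of the limma fit for 3 members, and these are listed here because the difference between times was itself tested. The difference of the log2 effects (24 h minus 6 h) was -0.42 for CHORDC1, -0.30 for HSPH1 and -0.30 for HSPA14. CHORDC1 was lower with 25 µg/ml at both times, HSPH1 was lower at 24 h and within the spread at 6 h, and HSPA14 measured higher at 6 h (0.14, not called) and was lower at 24 h. The calls were lost in 8, 10 and 19 of 29 other settings, in that order, and no setting reversed their sign.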

How the results depend on the processing

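None of the 22 called values changed sign under the settings run. Among members not called at 24 h, HSF1, CDC37, BAG2 and FKBP5 changed sign under the GC content and length correction. Counts of members called (lower and higher together) moved as follows, and the shares of all genes called moved with the settings too. For 25 against 0 µg/ml over all times, 3 members became 6 with median centring, 6 with quantile normalization, 10 with GC content and length correction (10 with the replicate block added), 1 without 24 h libraries, 1 in lane 4 and 0 in lane 5. Leaving out single libraries gave 2 to 9, and 9 without either library of 12.5 µg/ml at 6 h. For 12.5 against 0, 1 became 0 without the variance trend, the 24 h or the 12 h libraries, and 0 in either lane, with 0 to 2 on leaving out single libraries. For 25 against 12.5, 1 became 0 with quantile normalization, without the 24 h or the 12 h libraries and in either lane, and ranged from 0 to 17 on leaving out single libraries. At 6 h, 0 became 1 (CHORDC1) with a minimum of 5 FPKM, lane as a covariate or the GC correction, with or without the block, and the range was 0 to 1. At 12 h, 0 became 1 (CHORDC1) with the GC correction, with or without the block, and stayed 0 on leaving out single libraries. At 24 h, 12 became 6 with no filter, 7 in lane 4, 21 with the GC correction and 20 with the block added, and 2 to 19 on leaving out single libraries. For the interaction, 3 became 6 with quantile normalization, 0 without 12 h libraries, 0 in lane 4, 6 with the GC correction, 7 with the block added, and 0 to 9 on leaving out single libraries. For untreated 24 against 6 h, 2 became 0 with no filter, 8 with quantile normalization, 1 without the trend, 1 with lane as a covariate, 0 without 12 h libraries, 0 in lane 4, 1 with the replicate block, 15 with the GC correction and 17 with the block added, and 0 to 10 on leaving out single libraries. With the GC correction, 9.75% of all genes were lower and 7.67% higher over all times, and 10.3% and 8.41% at 24 h. It gave 1.72% and 1.19% for the interaction, and 3.61% and 4.95% for untreated 24 against 6 h. Quantile normalization gave 5.43% and 4.49% over all times, 7.97% and 7.92% at 24 h, and 1.46% and 1.71% for the interaction. Without a filter, 2.83% were lower and 4.94% higher at 24 h. Leaving out single libraries moved these shares too. The causes of these moves were not tested.

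Over 28 pairs of groups the replicate differences correlated at -0.18 to 0.13, and 2 exceeded 0.1. Such correlations cannot show whether equal replicate numbers mark paired samples. At 6 h replicate 1 ran in lane 4 and replicate 2 in lane 5. With the replicate block alone, 3 members were called over all times, 11 at 24 h and 2 by the interaction. Of all genes, 3.45% were lower and 4.61% higher over all times, 5.16% and 10% at 24 h, and 0.624% and 1.57% by the interaction. Lane 4 has no 12 h libraries and lane 5 no 24 h libraries, so those values were not run, nor were comparisons needing the single untreated 12 h library without it. The absolute depth is unknown, and 1 or 2 libraries per group limit what could be detected.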
